A study of Bubalus bubalis with 12 samples.

Results

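Laminins are the proteins around which every basement membrane is built, and each laminin is a trimer of 1 alpha, 1 beta and 1 gamma chain. The genes described here are the laminin chains LAMA1, LAMA2, LAMA3, LAMA4, LAMA5, LAMB1, LAMB2, LAMB3 and LAMC1, taken by their symbols from the gene expression table of the ruminal wall of dairy buffaloes. Of these 9 genes, 8 were matched to a row among the 34037 genes of the table, and LAMB2 was not analysed here. All 8 were among the 12619 genes with enough reads to be tested. The laminin genes LAMB4 and LAMC3 are given beside them.

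In a stratified squamous epithelium such as that of the rumen, LAMA3 and LAMB3 are chains of the laminin that holds the basal cells to the underlying tissue through hemidesmosomes. LAMA5 pairs with LAMB1 or LAMB2 and with LAMC1 in the basement membrane of most mature epithelia and of blood vessels. LAMA1 belongs mainly to embryonic and some adult epithelial basement membranes, LAMA2 to those of muscle and nerve, and LAMA4 to those of vessels and other mesenchymal cells.

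The ruminal wall was sampled from 12 adult Italian Mediterranean dairy buffaloes (Bubalus bubalis) after a feeding trial of 60 days. A total mixed ration (TMR) was fed to 6 buffaloes, the control group, while for the other 6, the treated group, freshly cut ryegrass made up 30% of the TMR diet. Frozen tissue of each animal gave 1 stranded total RNA library, and between 10531541 and 12948372 reads per animal were assigned to genes. The levels are given as FPKM, fragments scaled by gene length and by the fragments counted in that animal, which can be compared between genes because they are per length.

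The libraries of control replicate 6 and treated replicate 6 stood apart from the rest. Their Spearman correlation over the tested genes was 0.958 with each other but only 0.912 to 0.948 with the other 10 animals, which correlated with one another at 0.953 to 0.981. Differences between the diets in the laminin chains are therefore given with and without both of them, and relations across animals over the other 10 only. The summed level of the epithelial markers KRT5, TP63, DSG3 and PERP lay between 2056 and 3613 FPKM. Against this, 8 smooth muscle genes summed to 4.98 to 34.1 FPKM and 6 fibroblast genes to 15.9 to 236 FPKM. Epithelial genes thus made up most of the summed signal of these markers in tissue labelled as rumen wall. The sums depend on the genes chosen, and only 4 of 6 epithelial genes looked for had a row. They do not give the share of epithelium in the tissue. The 3 adipocyte genes and the glial gene SOX10 had 3 reads or fewer in every animal.

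The most abundant laminin chains were those of the epithelial anchoring laminin. LAMA3 had a mean of 30.1 FPKM and LAMB3 of 29.8 FPKM over the 12 animals. They were followed by LAMA5 with 11.4, LAMC1 with 9.62, LAMB1 with 4.79, LAMA2 with 3.55, LAMA4 with 1.29 and LAMA1 with 1.05 FPKM. LAMC3 had 1.00 FPKM, and LAMB4 had 0 reads in all 12 animals, a count that still allows up to 3 reads in each.

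Some neighbours in this order could not be separated. LAMA3 was above LAMB3 in 3 of 12 animals, and the log2 ratio of both chains was 0.13 ± 0.68 (SD, n = 12). Without both replicate 6 animals LAMA3 was above LAMB3 in 1 of 10, with a median ratio of LAMB3 to LAMA3 of 1.08. The place of LAMA3 above LAMB3 thus leaned on those 2 libraries. LAMA5 was above LAMC1 in 9 of 12 animals with a log2 ratio of 0.14 ± 0.50 (SD, n = 12), and in 9 of the 10. LAMB1 exceeded LAMA2 in 8 of 12 animals, and LAMA4 exceeded LAMA1 in 9 of 12, in both cases by a mean log2 ratio smaller than its SD. The remaining steps held in every animal: LAMB3 was above LAMA5, LAMC1 above LAMB1 and LAMA2 above LAMA4 in 12 of 12. The level of LAMA3 is per 10986 bases of gene model. The gene is known to give a long and a short transcript, and values per gene do not tell which of them was read.

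**Figure D1:**
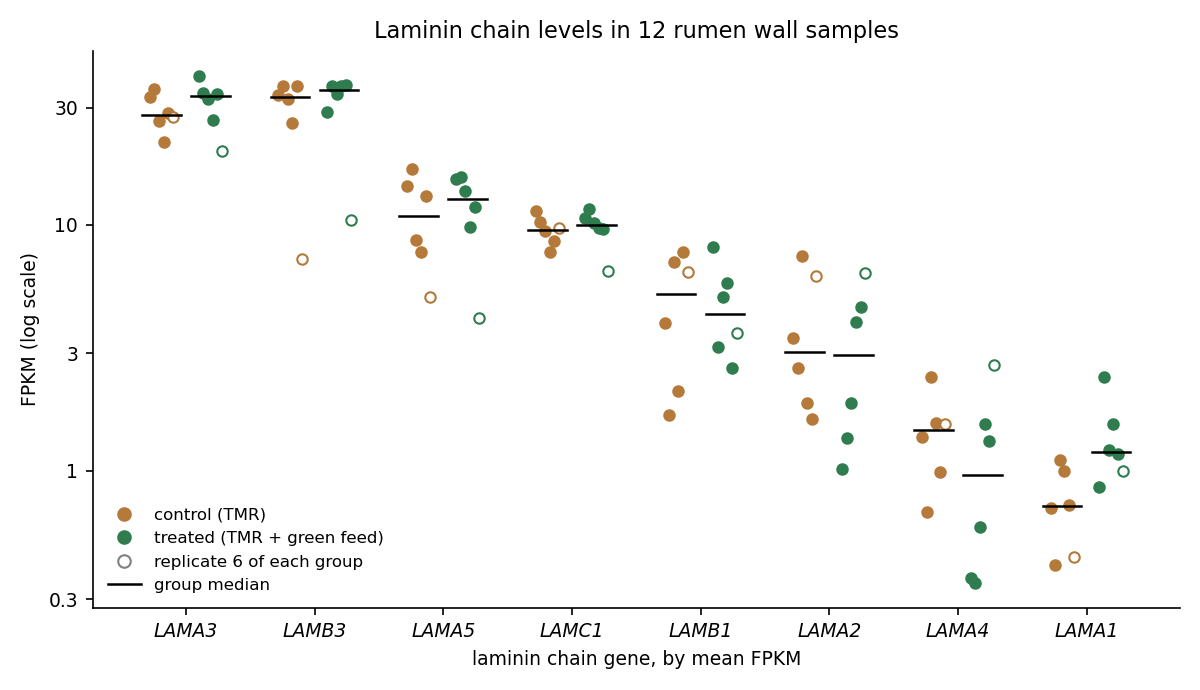
FPKM of 8 laminin chains (log scale) in each of the 6 control and 6 treated animals, with open circles for replicate 6 of each group and lines for the group medians. LAMA3 and LAMB3 lead, the 2 open circles of LAMB3 (7.28 and 10.4 FPKM) lie far below the others, and LAMA1 is the chain whose treated animals lie highest relative to the controls.

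Within the alpha chains, LAMA3 made up 63.1% ± 3.27 (SD, n = 6) of the summed FPKM under TMR and 63.7% ± 3.75 (SD, n = 6) under green feed, with single animals between 57.3% and 69.6%. LAMA5 contributed 23.4% ± 6.75 (SD, n = 6) and 23.3% ± 6.10 (SD, n = 6), respectively. LAMA2 held 8.61% and 7.44%, LAMA4 3.27% and 2.72%, and LAMA1 1.68% and 2.83% of the alpha chain signal. For each alpha chain but LAMA1 the group means differed by less than the SD of either group. Among LAMB1, LAMB3 and LAMB4, LAMB3 held 82.6% ± 15.4 (SD, n = 6) under TMR and 85.2% ± 7.62 (SD, n = 6) under green feed. Its lowest shares, 53.0% and 74.2%, were those of control and treated replicate 6, while the other 10 animals lay between 78.1% and 95.6%. Shares are given as a description, without a test.

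**Figure D2:**
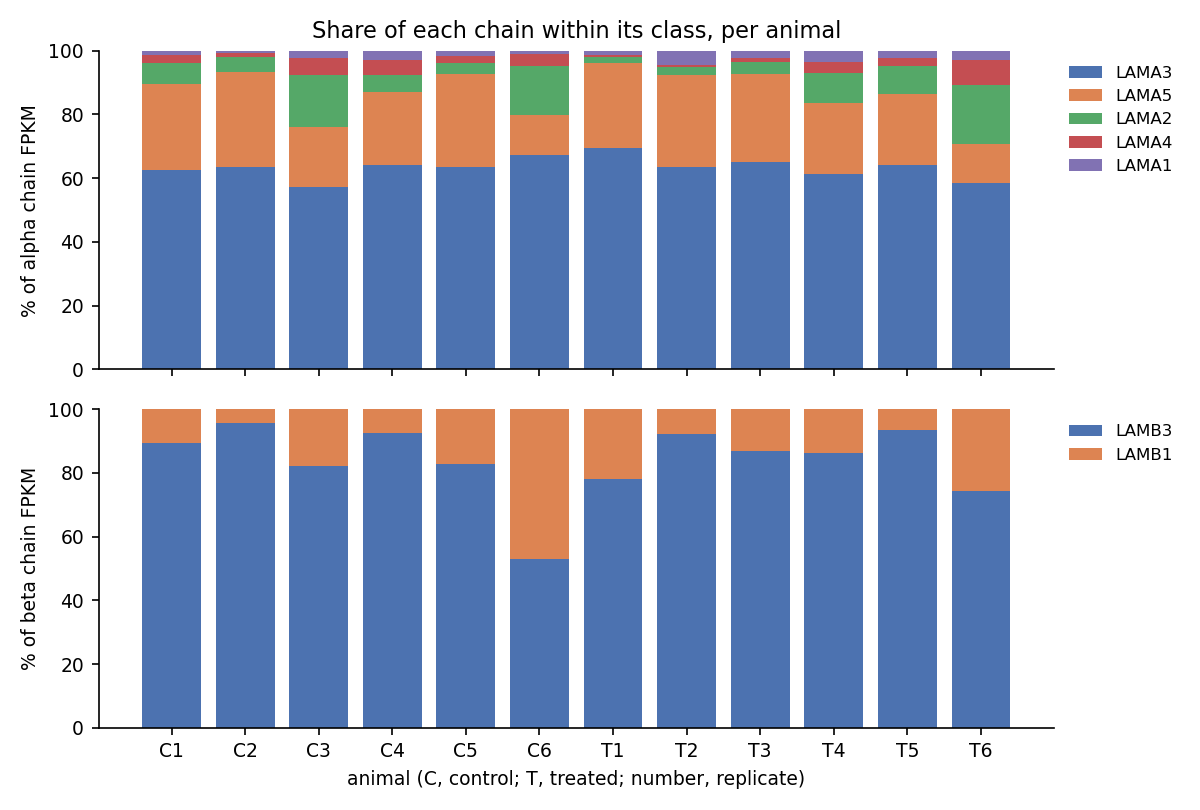
Share of each chain in the summed FPKM of its class (percent) in each animal, with the alpha chains above and the beta chains below. LAMA3 takes 57.3% to 69.6% of the alpha chains in every animal, whereas LAMB3 drops to 53.0% of the beta chains in control replicate 6.

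Whether green feed altered the laminin chains was asked by comparing the 6 treated with the 6 control animals. Of the 8 chains tested, 1 chain, LAMA1, differed at a nominal limma p-value below 0.05, and it rose in the treated group. Over all genes tested, 1.24% reached that level (157 of 12619), namely 0.792% with higher levels after green feed and 0.452% with lower ones (100 and 57 genes). The share of 1.24% is below the 0.05 that the threshold allows on average without any difference between the diets. With limma and Benjamini-Hochberg adjustment over all genes tested, 0 of 8 chains had an adjusted p-value below 0.05, as had 0% of all genes. The voom method of limma, run on the reads behind the FPKM, gave 144 nominal and 0 adjusted calls among the same genes. Of the 8 chains, 6 had a positive and 2 a negative log2 fold change in the limma fit on FPKM, with a median log2 fold change of 0.09, against 0.01 over all genes tested. None of the 8 chains had groups that did not overlap, which was the case for 0.0555% of the tested genes.

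LAMA1, the alpha chain of the first basement membranes of the embryo, ranged in the control group from 0.412 over a median of 0.716 to 1.11 FPKM. In the treated group it ranged from 0.856 over a median of 1.195 to 2.40 FPKM. Of the treated animals, 4 of 6 lay above every control and 4 of 6 controls lay below every treated animal, but the groups overlapped. The means were 0.732 ± 0.281 (SD, n = 6) and 1.37 ± 0.560 (SD, n = 6) FPKM. LAMA1 thus had a log2 fold change of 0.90 ± 0.32 (SE), a 1.86-fold higher level, whose 95% interval ran from 1.16-fold to 2.99-fold. The limma p-value was 0.0140, the adjusted limma p-value 0.9997, and the two-sided exact permutation test over 924 assignments of the animals gave p = 0.0173.

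The levels of LAMA1 rest on 45 to 277 reads per animal. The highest animal, treated replicate 2, had 277 reads and 2.40 FPKM with an exact 95% Poisson interval of 2.13 to 2.70 FPKM. The lowest, control replicate 2, had 47 reads and an interval of 0.303 to 0.548 FPKM, so that the spread between animals exceeded counting error. These intervals cover counting error only. Without both replicate 6 animals the log2 fold change of LAMA1 was 0.85 with a limma p-value of 0.0266, in a fit in which 1 of 8 chains and 2.49% of all tested genes passed the nominal test, and the exact permutation test over 252 assignments gave p = 0.0397. LAMA1 is among the genes that the study itself picked on these animals, so that its call is not independent evidence.

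The markers of muscle and connective tissue were compared between the diets as well. At the nominal level, 1 of 5 tested smooth muscle genes and 0 of 6 fibroblast genes passed, against 1.24% of all genes tested. With all genes above 0, 3 of 8 smooth muscle genes passed, against 2.45% of all genes. With at least 0.1 FPKM in 6 animals it was also 3 of 8, against 1.83%. ACTG2 and CNN1, which had too few reads to be tested, had log2 fold changes of -2.21 and -3.06 (exact permutation p = 0.0238 each). Each had 3 reads or fewer in 3 animals. All 5 tested smooth muscle genes and all 6 fibroblast genes had lower mean levels in the treated group, with median log2 fold changes of -0.78 and -0.54. The most abundant of them were TAGLN (7.70 FPKM), ACTA2 (4.12 FPKM) and DES (2.44 FPKM) for muscle and COL3A1 (32.1 FPKM), LUM (26.9 FPKM) and DCN (20.1 FPKM) for fibroblasts. DES, the muscle intermediate filament desmin, passed the nominal test (limma p = 0.0271, exact permutation p = 0.0519). It fell from 3.22 ± 1.40 (SD, n = 6) to 1.66 ± 0.976 (SD, n = 6) FPKM. The study also picked DES on these animals, so that its call is not independent evidence. The nominal call of DES was lost without any 1 of 6 animals, namely control replicates 2, 3 and 6 and treated replicates 1, 2 and 5, with limma p-values of 0.0512 to 0.0651, and without both replicate 6 animals (0.0623). Its log2 fold change was -1.04 with all animals, -0.97 without both replicate 6 animals and -0.98 to -0.77 in the single-animal fits that lost the call. The summed smooth muscle level was 14.2 to 34.1 FPKM in the control and 4.98 to 25.4 FPKM in the treated group, and the summed fibroblast level 34.7 to 236 and 15.9 to 138 FPKM. With the log2 sum of both gene lists as a covariate, LAMA1 had a log2 fold change of 0.96 and a nominal limma p-value of 0.0150.

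**Figure D3:**
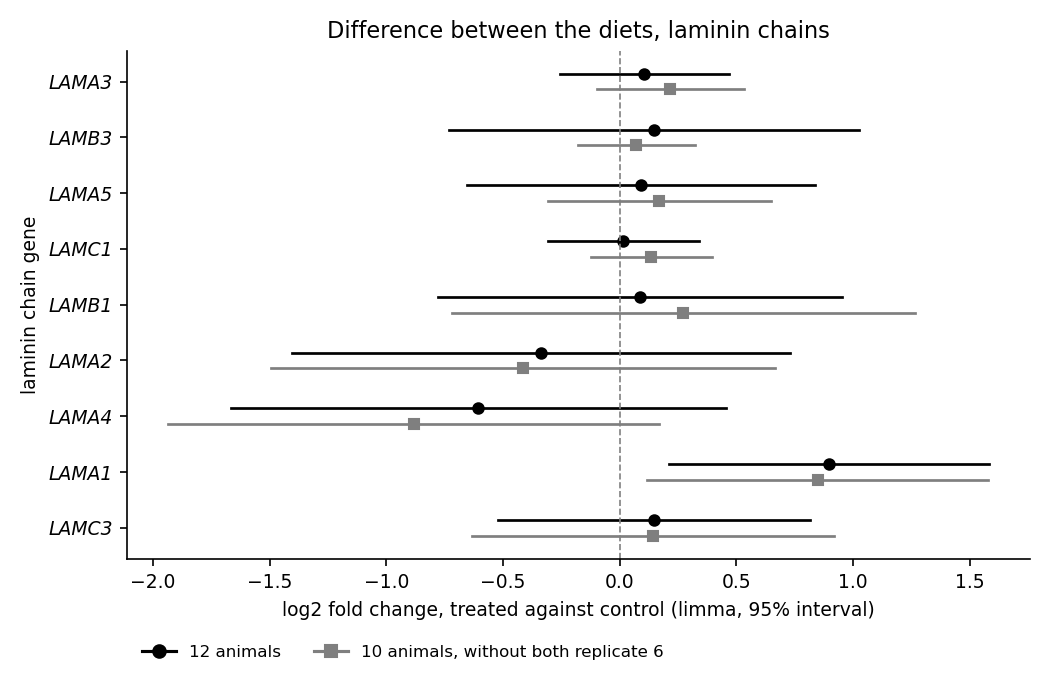
Log2 fold change of each laminin chain (treated against control, limma, with 95% intervals) over all 12 animals (black circles) and over the 10 animals without both replicates 6 (grey squares). LAMA1 lies to the right of 0 in both (0.90 and 0.85), and the interval of LAMB3 narrows from -0.73 to 1.03 to -0.18 to 0.32 without those 2 animals.

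LAMA4 and LAMA2, the alpha chains of vessels and of muscle, were the only chains with lower mean log2 levels in the treated group, and neither passed a test. LAMA4 ranged from 0.680 over a median of 1.46 to 2.40 FPKM in the control group and from 0.350 over 0.957 to 2.68 FPKM in the treated group. Treated replicates 1, 2 and 3 (0.367, 0.350 and 0.590 FPKM) were below every control, while treated replicate 6 was the highest of all 12 animals. The log2 fold change of LAMA4 was -0.61 ± 0.49 (SE; limma p = 0.241, exact permutation p = 0.281), and without both replicate 6 animals it was -0.88 (limma p = 0.0921). The lowest value of LAMA4 rests on 25 reads, with an exact 95% Poisson interval of 0.227 to 0.517 FPKM.

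LAMA2 had the largest coefficient of variation of the 8 chains over the 10 animals other than replicates 6, 65.8%. It ran from 1.62 over a median of 3.04 to 7.45 FPKM in the control group and from 1.01 over 2.96 to 6.40 FPKM in the treated group. The groups overlapped nearly in full, and the log2 fold change was -0.34 ± 0.50 (SE; exact permutation p = 0.550), and -0.41 ± 0.49 (SE) without both replicate 6 animals. Of the endothelial genes, all 7 were tested and 0 passed, with a median log2 fold change of -0.09 and with -0.48 and all 7 lower once both replicate 6 animals were left out. Their sum was 11.1 to 36.8 FPKM in the control and 7.12 to 37.2 FPKM in the treated group. Their most abundant members were PECAM1 (7.55 FPKM), VWF (4.63 FPKM) and KDR (3.50 FPKM). No gene passed among the tested pericyte genes (CSPG4 and NOTCH3), leukocyte genes (PTPRC and CD3E), glial genes (S100B) and 4 epithelial genes either. Since bulk tissue was measured, fewer cells of a type and less RNA per cell cannot be told apart.

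LAMA4 and LAMA2 increased with the stromal genes from animal to animal, and LAMA5, and less clearly LAMA3, ran the other way. Over the 10 animals other than replicates 6, the log2 level of LAMA4 correlated with that of the 6 fibroblast genes PDGFRA, DCN, LUM, COL1A1, COL3A1 and DPT at Pearson's r = 0.94 (permutation p = 3e-05) and Spearman's rho = 0.92 (permutation p = 0.00059). LAMA2 did so at r = 0.88 (permutation p = 0.00097) and rho = 0.84 (permutation p = 0.00385). After Benjamini-Hochberg adjustment over the 60 relations computed, the adjusted permutation p-values were 0.0018 and 0.0354 for LAMA4, and 0.0145 and 0.0414 for LAMA2. Without the 2 animals farthest from the median on the x axis, r was 0.91 for LAMA4 and 0.70 for LAMA2. Within the diets, after subtraction of each diet's mean, r was 0.95 and 0.87. With the smooth muscle sum, r was 0.87 for LAMA4 and 0.85 for LAMA2, with adjusted permutation p-values of 0.0145 and 0.0167. For rho these were 0.0823 and 0.0414, so that the relation of LAMA4 with smooth muscle held for r alone. Its r fell to 0.65 without the 2 farthest animals. With the endothelial sum, r was 0.67 for LAMA4 and 0.73 for LAMA2, and neither passed (adjusted permutation p = 0.147 and 0.0913). With the epithelial sum, r was 0.28 for LAMA3, 0.05 for LAMB3 and 0.10 for LAMA5, and none of these passed. LAMA5, in contrast, correlated with the fibroblast sum at r = -0.77 (adjusted permutation p = 0.06) and rho = -0.84 (adjusted permutation p = 0.0414). LAMA4 and LAMA5 correlated with each other at r = -0.79 (adjusted permutation p = 0.0549) and rho = -0.83 (adjusted permutation p = 0.0414), so that both relations passed the adjusted level for rho alone. LAMA3 had r = -0.69 and rho = -0.77 with the fibroblast sum (adjusted permutation p = 0.126 and 0.0823). With LAMA4 it had r = -0.72 and rho = -0.81 (adjusted permutation p = 0.0915 and 0.0561), so that neither relation of LAMA3 passed. With the stromal score as a covariate, the log2 fold change of LAMA4 was -0.03 in place of -0.61, and that of LAMA2 turned to 0.26.

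**Figure D4:**
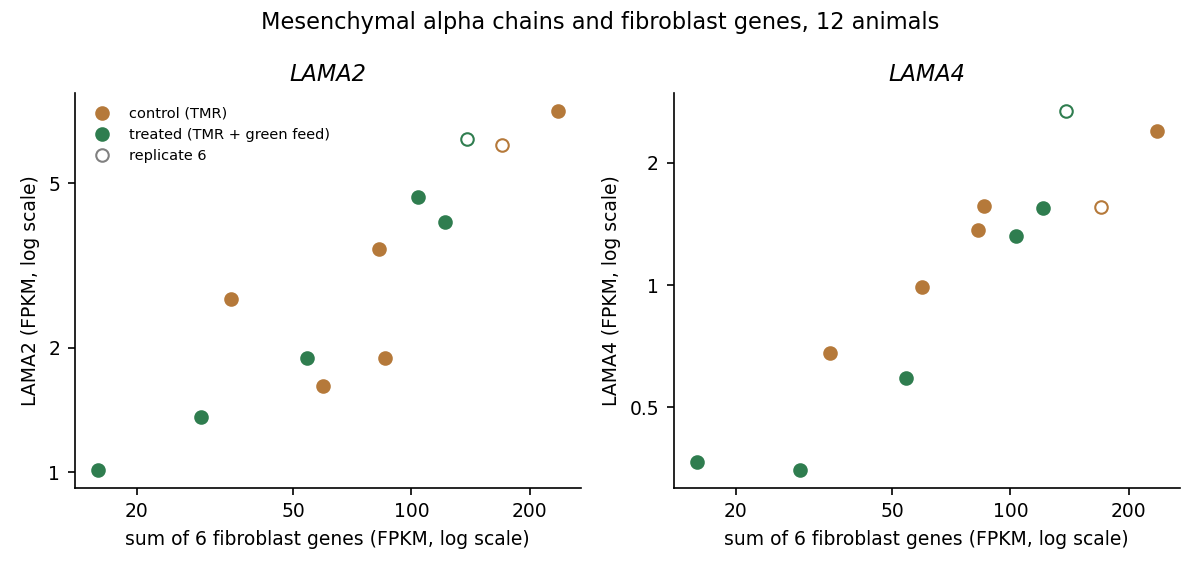
FPKM of LAMA2 (left) and LAMA4 (right) against the summed FPKM of 6 fibroblast genes in each animal, both on log scales, with open circles for replicate 6 of each group. Both chains increase with the fibroblast sum, which runs from 15.9 to 236 FPKM, and the animals of both diets lie along the same trend.

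The chains of the epithelial anchoring laminin did not pass the test between the diets. LAMA3 ranged from 21.8 over a median of 28.03 to 35.6 FPKM in the control group and from 20.02 over 33.4 to 40.4 FPKM in the treated group. Its groups overlapped, and its log2 fold change was 0.10 ± 0.17 (SE), with a 95% interval of -0.26 to 0.47 (exact permutation p = 0.550). Without both replicate 6 animals it was 0.22, with an interval of -0.10 to 0.53. LAMB3 ranged from 7.28 over 33.2 to 36.9 FPKM in the control group and from 10.4 over 35.4 to 37.3 FPKM in the treated group. Its log2 fold change was 0.15 ± 0.41 (SE; exact permutation p = 0.593). Without both replicate 6 animals it was 0.07 ± 0.11 (SE).

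LAMB3 was low in both replicate 6 animals. Their 7.28 and 10.4 FPKM compare with 25.9 to 37.3 FPKM in the other 10 animals, and LAMA5 also lay lower there, at 5.11 and 4.16 against 7.75 to 16.8 FPKM. LAMA3 in the same animals was 27.5 and 20.02 FPKM, against 21.8 to 40.4 FPKM. The ratio of LAMB3 to LAMA3 was 0.714 to 1.38 in the 10 animals, but 0.265 in control replicate 6 and 0.521 in treated replicate 6. The ratio of LAMA5 to LAMA3 was 0.330 to 0.473 in the 10 animals and 0.186 and 0.208 in those 2. LAMA3 therefore did not change in parallel with LAMB3 and LAMA5 in these libraries. The ratio of LAMB1 to LAMC1, by contrast, was 0.665 and 0.559 in those 2, within the 0.163 to 0.901 of the other 10 animals.

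Other genes of the hemidesmosome and the basal layer were low in the same animals, though not all of them. KRT5, the keratin of basal cells, was 451 and 498 FPKM against at least 1179 FPKM in the other 10. COL17A1, the transmembrane collagen of the hemidesmosome, was 57.5 and 53.2 against at least 129 FPKM, and ITGB4, the integrin chain that binds this laminin, was 27.1 and 18.6 against at least 45.6 FPKM. COL7A1, the anchoring fibril collagen, was 2.61 and 3.21 against at least 7.98 FPKM. DST, a plakin of the hemidesmosome, was 43.3 and 35.9 FPKM against 39.7 to 61.7 FPKM, and TP63, the transcription factor of basal cells, was 37.05 and 29.3 against 32.3 to 50.6 FPKM, so that control replicate 6 lay inside the range for both. ITGA6, the partner of ITGB4, was 75.7 FPKM in control replicate 6, the highest of the 12 animals, and 50.5 in treated replicate 6, the lowest. DSG3, a desmosomal cadherin, was higher there than in any other animal, at 971 and 843 FPKM. Both replicate 6 animals were below all others for 2 of the 8 chains, and over all tested genes this was the case for 19.4% of genes, so that it is common in these 2 libraries. The cause was not tested.

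**Figure D5:**
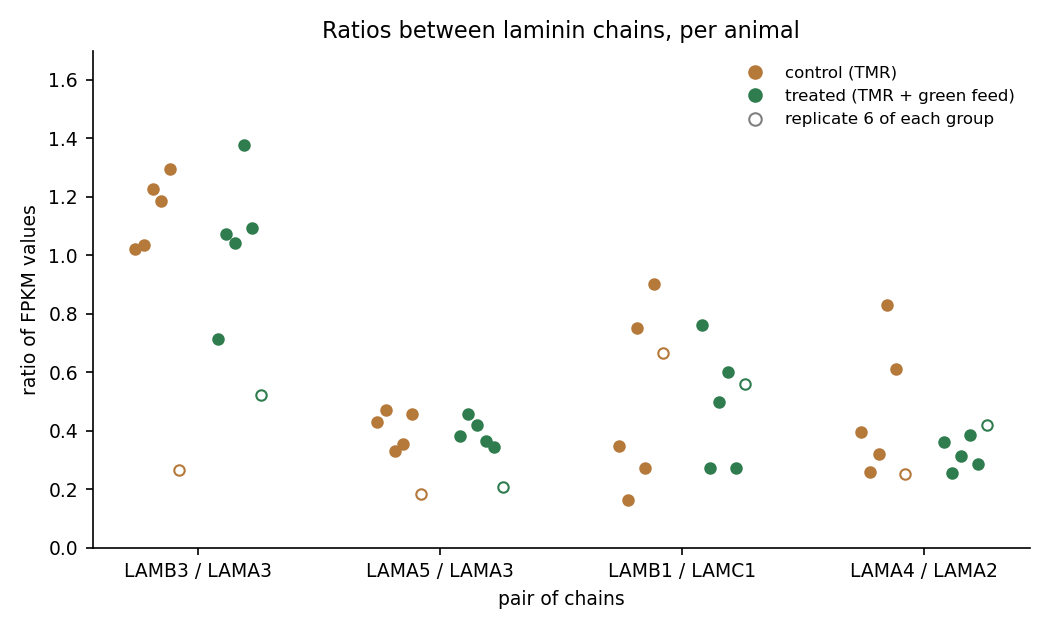
Ratios between FPKM values of laminin chains in each animal, with open circles for replicate 6 of each group. The ratio of LAMB3 to LAMA3 falls to 0.265 and that of LAMA5 to LAMA3 to 0.186 in control replicate 6, whereas the ratio of LAMB1 to LAMC1 is 0.665 there, inside the range of the others.

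LAMA5 ranged from 5.11 over a median of 10.9 to 16.8 FPKM in the control group and from 4.16 over 12.8 to 15.7 FPKM in the treated group, and the groups overlapped. Its log2 fold change was 0.09 ± 0.35 (SE; exact permutation p = 0.814), and 0.17 ± 0.22 (SE) without both replicate 6 animals. LAMC1, the gamma chain of most laminins, was among the most even of the chains, with 7.74 over 9.57 to 11.4 FPKM in the control and 6.47 over 9.96 to 11.6 FPKM in the treated group. Its log2 fold change was 0.02 with a 95% interval of -0.31 to 0.34 (exact permutation p = 0.900), which leaves room for a fall to 0.808-fold or a rise to 1.26-fold. Without both replicate 6 animals it was 0.14 ± 0.12 (SE). LAMB1, the usual beta partner of LAMC1, ranged from 1.68 over 5.22 to 7.73 FPKM in the control and from 2.62 over 4.36 to 8.10 FPKM in the treated group. Its log2 fold change was 0.09 ± 0.40 (SE; exact permutation p = 0.842), and 0.27 ± 0.45 (SE) without both replicate 6 animals. Although they can share a trimer, LAMB1 varied 4.81-fold over the 12 animals and LAMC1 1.80-fold, and their ratio ran from 0.163 to 0.901.

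The spread between animals differed from chain to chain. Over the 10 animals without replicates 6, the coefficient of variation of FPKM was 11.6% for LAMB3, 12.01% for LAMC1, 17.3% for LAMA3 and 24.4% for LAMA5. It was 49.7% for LAMA1, 50.1% for LAMB1, 57.9% for LAMA4 and 65.8% for LAMA2. Over all 12 animals it was 15.2% for LAMC1, 19.8% for LAMA3, 34.998% for LAMB3, 37.1% for LAMA5, 46.7% for LAMB1, 51.1% for LAMA1, 57.8% for LAMA4 and 62.0% for LAMA2. The 4 most abundant chains thus had lower coefficients than the other 4 in both sets of animals, and the less abundant chains also rest on fewer reads. LAMA3 and LAMA5 rose and fell together over these animals, with Pearson's r = 0.90 (permutation p = 0.00051, adjusted permutation p = 0.0145) and Spearman's rho = 0.89 (permutation p = 0.00128, adjusted permutation p = 0.0384). Their r was 0.75 without the 2 animals farthest from the median and 0.91 after subtraction of each diet's mean. LAMA5 and LAMC1 had rho = 0.83 (adjusted permutation p = 0.0414) but r = 0.75 (adjusted permutation p = 0.0765). LAMA2 and LAMA4 had r = 0.82 (adjusted permutation p = 0.0397) but rho = 0.71 (adjusted permutation p = 0.128), and r = 0.65 without the 2 farthest animals, so that this relation leaned on those animals. No relation of LAMB1 with the other 7 chains passed the test, with r between -0.05 and 0.18.

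For each chain, the tested genes whose deviations from the diet means were most like its own over the 12 animals are given as a description. LAMA2 was nearest to CALD1, which encodes the actin-binding protein caldesmon of smooth muscle, with r = 0.97 over 12 animals and r = 0.97 over the 10. PRKAR2B (0.96 and 0.94) and CXHXorf56 (0.95 and 0.94) came next for LAMA2. For LAMA4, MDH1 (r = 0.97), the gelatinase gene MMP2 (r = 0.97) and the fibrillin gene FBN1 (r = 0.96) came first, and over the 10 animals their r was 0.96, 0.96 and 0.98. LAMA1 was nearest to PDXDC1 (0.95 and 0.96), C9H19orf24 (0.89 and 0.87) and MAX (0.87 and 0.95). LAMA3 was nearest to FOXN3, SH3RF2 and MARF1 (each 0.97, and 0.95, 0.94 and 0.97 over the 10). LAMA5 was nearest to RAI1, PNN and EVPL (each 0.98), the last of which encodes envoplakin of the squamous cell envelope. Over the 10 animals RAI1, PNN and EVPL had r = 0.94, 0.96 and 0.94 and ranked only 32, 11 and 58 among the matches of LAMA5. LAMC1 was nearest to AKAP11, ANKRD12 and IQCN (0.96, 0.96 and 0.95). Over the 10 animals their r was 0.89, 0.89 and 0.92, and they ranked only 44, 39 and 13. LAMB1 had the weakest match, SOCS2 with r = 0.89, followed by PLD2 (0.83) and the integrin gene ITGAV (0.81). For LAMB3, PIGQ, ECE1 and MAD1L1 reached 0.99, 0.99 and 0.98 over 12 animals but 0.78, 0.68 and 0.90 over the 10, so that its likeness to the first pair leaned on both replicate 6 animals.

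Laminins are linked to the type IV collagen network by nidogens and perlecan. Of 18 such basement membrane genes looked for, 14 were tested, of which 1 rose and 0 fell at a nominal p-value, with a median log2 fold change of -0.09. The gene that rose was COL4A6, an epithelial and smooth muscle type IV collagen chain, whose mean went from 5.88 ± 1.02 (SD, n = 6) to 7.89 ± 1.66 (SD, n = 6) FPKM. With green feed, 5 of 6 animals were above every control. Its log2 fold change was 0.41 (limma p = 0.0360, exact permutation p = 0.0433), and the study also picked COL4A6 on these animals. The nominal call of COL4A6 was lost without control replicate 1, 4 or 6 or treated replicate 1, 2, 3, 4 or 5, with limma p-values of 0.0503 to 0.0851, and with the stromal score as a covariate (0.0820). The size of the difference changed little, with log2 fold changes of 0.34 to 0.42 in those single-animal fits and of 0.35 with the score. The treated animals stood above the controls without overlap once both replicate 6 animals were left out, with an exact permutation p = 0.00794, the smallest that 252 assignments can give. The same was true of COL4A5, its usual partner chain, although with 12 animals COL4A5 had a log2 fold change of 0.13 (limma p = 0.442, exact permutation p = 0.457). Of all genes tested, 0.444% had such groups without overlap in those 10 animals, a share below the 0.00794 that random assignment would give on average. For COL4A6 both replicate 6 animals lay below the other 10 (4.74 and 4.85 against at least 5.15 FPKM). Leaving them out was chosen after seeing the data, so that the exact permutation p-values over 10 animals are a description only.

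COL4A5 was the most abundant gene of this list at 42.9 FPKM, followed by TINAGL1 with 14.4 FPKM and COL18A1 with 14.03 FPKM, none of which passed the test. The nidogen gene NID1 had 1.27 FPKM, with a log2 fold change of -0.68 (exact permutation p = 0.355), and the perlecan gene HSPG2 had 3.16 FPKM, with 0.07 (exact permutation p = 0.825).

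Laminins are bound at the cell surface by integrins, dystroglycan and related receptors. Of 14 receptor genes looked for, 12 were tested, and 0 passed the nominal test in the limma fit, with a median log2 fold change of -0.03. Of these receptor genes, 8 were lower and 4 higher, and voom gave 0 nominal and 0 adjusted calls. The most abundant were RPSA, SDC1 and ITGA6, with 2301, 100.2 and 60.9 FPKM, of which ITGA6 is the partner of ITGB4 and RPSA is also a ribosomal protein gene. The collagen and laminin receptor genes ITGA1 and ITGA2 came nearest to the nominal level, with log2 fold changes of -0.46 and -0.34 and nominal limma p-values of 0.0582 and 0.0572. ITGA1 passed it without both replicate 6 animals (-0.51, limma p = 0.0221, exact permutation p = 0.0476), where those animals had held the highest levels of ITGA1, 6.75 and 5.80 FPKM. The study called ITGA2 lower with green feed on these animals at a nominal edgeR p-value below 0.05, a call that the limma fit over all animals did not reach. All 4 hemidesmosome and anchoring fibril genes were tested and 0 passed, with a median log2 fold change of 0.10. Among them COL17A1 had 126 FPKM, DST 50.1 FPKM and PLEC 32.7 FPKM.

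In the RefSeq annotation of another buffalo assembly, NDDB_SH_1, LAMB1 and LAMB4 are direct neighbours. They were not alike in level, since LAMB1 had 4.79 FPKM beside a LAMB4 without reads.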

How the data were processed

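Ruminal wall RNA of 12 buffaloes, 6 per diet, was analysed. The authors trimmed the reads with Trimmomatic 0.39 (base quality of at least 25, length of at least 35 bp), aligned them to UOA_WB_1 with STAR 2.5.2b, and assigned them strand-wise to genes with featureCounts 2.0.0 (mapping quality of at least 30). The values that the authors deposited are FPKM, without a filter on genes. Samples were grouped by the sample labels. Of 16 columns, 4 match no sample given here and were not used. In the submitters' processing notes edgeR and FastQC 0.11.5 are also named.

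The FPKM of a gene step by the worth of 1 read, from which the reads behind each value were worked out. The reads are whole for all 22972 genes above 0 because whole numbers were searched for, so that this is no check of them. The gene lengths that they imply were whole within a tolerance of 0.01 for 22971 of these genes, where needed after a whole-number multiplier. A gene was tested if any animal had 42 or more TMM-scaled reads (12619 genes), with limma 3.58.1 in R 4.3.3 (lmFit, eBayes with trend) on log2(FPKM + 0.01), and p-values were adjusted over these genes after Benjamini and Hochberg. A log2 fold change is on that scale and understates changes of low genes. Single genes were also tested with a two-sided exact permutation test, whose smallest possible p-value is 0.00216 over 924 assignments. Relations across animals were tested by permutation with 100000 resamples. They were planned over 12 animals and computed over 10, since replicates 6 form a cluster of their own. The smallest p-value that these resamples can give is 1e-05. Python 3.11.15, numpy 2.4.6, scipy 1.17.1, pandas 2.3.3 and matplotlib 3.10.9 were used, and the tests were checked on simulated data.

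The members and gene lists were chosen with earlier results of these data known. Named besides the chains are, of every list, those that passed the nominal limma level of 0.05 and the 3 most abundant tested genes, and for each chain the 3 genes most like it. Genes outside this rule, such as COL7A1, ITGB4, HSPG2, NID1, ITGA1, ITGA2, ACTG2 and CNN1, were named after their values were seen. Replicate numbers follow the description labels, while other numbers stand in the sample titles of control replicate 6 and of the treated group, so that the pairing check and the block depend on the numbering used. By the labels, same-numbered animals of both groups share only a number. The correlation of their deviations from the group means was -0.01 to 0.41, and not above 0.1 in every pair. Its mean was 0.21, against -0.04 between animals with different numbers, and the cause of this difference was not tested. Each library is from a separate animal.

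Alternatives were other pseudocounts (0.1, 1), other filters (any gene above 0, or 0.1 FPKM reached by 6 animals), TMM and median ratio scaling, robust empirical Bayes, the replicate number as a block, a smooth muscle and fibroblast score as a covariate, voom, and each animal left out. Leaving out both replicate 6 animals was chosen after seeing the data. Some results of these genes and lists are not reported here.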

Additional observations from a re-analysis of the deposited data

Results flagged for a closer look

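In 18 groups of 6 values (9 laminin genes in either diet), 2 values stood apart from the rest of their group by Dixon's criterion, and chance flags about 1 in 20 groups. LAMB3 was 7.28 FPKM in control replicate 6, with a gap to the next control that took 0.628 of the whole range. LAMB3 was 10.4 FPKM in treated replicate 6, where the gap took 0.684 of the range. The critical value for 6 samples is 0.625. The animals are those whose libraries stood apart over all genes, and the cause was not tested.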

How the results depend on the processing

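LAMA1 kept its direction and a nominal limma p-value below 0.05 under all 11 other settings and with each of the 12 animals left out (log2 fold change 0.44 to 1.03, the lowest with a pseudocount of 1). The number of chains with a nominal call was 1 and the number of adjusted calls over all genes 0 in each of these fits. The count of nominal calls, 157 of 12619 genes (1.24%), was 562 of 22972 (2.45%) with all genes above 0. With at least 0.1 FPKM in 6 animals it was 301 of 16450 (1.83%). Among the 12619 genes it was 377 with the stromal score and 314 without both replicate 6 animals. It was 142 to 324 with 1 animal left out, the highest without treated replicate 6. The cause was not tested. With the replicate number as a block, which the labels do not show to pair the animals, it was 321, and each number's own pair correlated best for 4 of 6 numbers. Of the basement membrane, receptor and hemidesmosome genes, 1 had a nominal call, 2 with the replicate block, 3 without both replicate 6 animals, and 0 to 3 with 1 animal left out. That count was 0 without control replicate 6 or treated replicate 3 or 5, 2 without control replicate 3 and 3 without treated replicate 6.

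Chains without a call changed sign in some fits. With the stromal score the log2 fold changes were 0.26 for LAMA2, -0.028 for LAMA3, -0.23 for LAMA5, -0.060 for LAMB3 and -0.055 for LAMC1. With 1 animal left out they ran from -0.11 to 0.37 for LAMA5, from -0.17 to 0.27 for LAMB1, from -0.22 to 0.43 for LAMB3 and from -0.042 to 0.13 for LAMC1. DES, itself a gene of the stromal score, had a log2 fold change of -0.74 with that score and no nominal call (limma p-value of 0.0815). LAMA1 rests on 45 to 277 reads per animal, and with 6 animals per group and a median standard error of 0.20 on the log2 scale, small differences were not detectable.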
